A study of Mus musculus with 8 samples.

Results

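Regulatory T cells are CD4 T cells that restrain other lymphocytes and are set apart by the transcription factor FOXP3. In tumours they are known for holding back CD8 T cells. They capture interleukin 2 with the receptor chain CD25 (Il2ra), remove costimulatory ligands from antigen-presenting cells with CTLA-4, and release interleukin 10. The transcription factor Helios (Ikzf2) and the receptor OX40 (Tnfrsf4) are frequent further markers. Here these cells were described in tumours of Hepa1-6, a mouse hepatoma line, whose dissociated cells were captured in droplets and sequenced from the 3′ ends of their transcripts. The labels give 4 groups, in which the hepatoma cells were wild type or had Soat1 edited, and the hosts received either PBS or a PD-1 antibody by the intraperitoneal route. The edited line is a knockout in the entry titles and a knockdown in the genotype field, and the 8 entries are a cDNA and an oligo library for each group. The sex, age and number of the animals are not given in the sources used here.

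The members were chosen by their own measured values: a cell was counted as a regulatory T cell if its Foxp3 value was at least 1, its mean of Cd3d, Cd3g and Trbc2 was at least 0.8, its mean of Cd8a and Cd8b1 was below 0.3 and its mean of the macrophage genes C1qa and C1qb was below 0.8. This gave 246 of 53528 cells. The same T-cell and macrophage limits left 12704 other T cells, of which 1681 were CD8-low with Foxp3 below 1, 10911 were CD8-high with Foxp3 below 1, and 112 were CD8-high with Foxp3 of at least 1. The CD8-low cells with Foxp3 below 1 are the closest comparison, since most other T cells were CD8-high. They were set apart by low CD8 values and not by Cd4. Cd4 was at 1 or more in 42.1% of them, and Klrd1, a gene of cytotoxic lymphocytes, in 35.9%. The members stood at 48.8% and 3.66%, and the CD8-high cells with Foxp3 below 1 at 2.25% and 74.1%. This comparison class may therefore not be conventional CD4 T cells alone. The levels of the 8 genes of the rule chose the cells and are given only as a description.

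Values were natural logs in a table of 2000 genes, in 6 sets of cells, numbered as at the end of each cell's name. No label ties a set to a group, so the effect of Soat1 editing or of the antibody on regulatory T cells was not measured. The sets are reported one by one or as a range, with no p-value, since cells are not replicates and the sets are unassigned samples. In set 1 every value was the log of 1 plus the UMIs (counted molecules) per 10000 of the cell, and whole UMIs could be recovered. In sets 2 to 6 every cell had values below 0, so the values had been changed by a step no source records. There the differences are differences of deposited values, not of expression. Whether the step also made the sets more alike is unknown, so agreement over 6 sets may not be 6 separate observations. This step also touched Foxp3. A UMI total was recovered for 5, 2, 23, 3 and 10 members of sets 2 to 6, and whole Foxp3 UMIs for 0, 0, 3, 0 and 0 of those, so how many members of these sets held a Foxp3 transcript is unknown. The cell names hold running numbers, so cell barcodes shared between libraries could not be counted.

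The members numbered 32, 35, 39, 62, 36 and 42 in sets 1 to 6. They made up 2.44%, 2.03%, 1.61%, 2.33%, 2.11% and 1.34% of the T cells of their set. Over all sets the share was 1.90%, with an exact Clopper-Pearson 95% interval of 1.67% to 2.15% that covers counting error only. The lowest share was in set 6 (interval 0.968% to 1.81%), and the shares of sets 1, 2, 4 and 5 lay above that interval while their own intervals overlapped it. Against CD8-low T cells alone, the share was 11.8% to 16.8% with a median of 12.4% over the sets, and set 6 at 12.1% was no longer lowest. The 6 shares of CD8-low T cells had intervals that overlapped one another. The plot of shares and marker counts shows both the spread between sets and how many markers each cell carried.

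**Figure D1:**
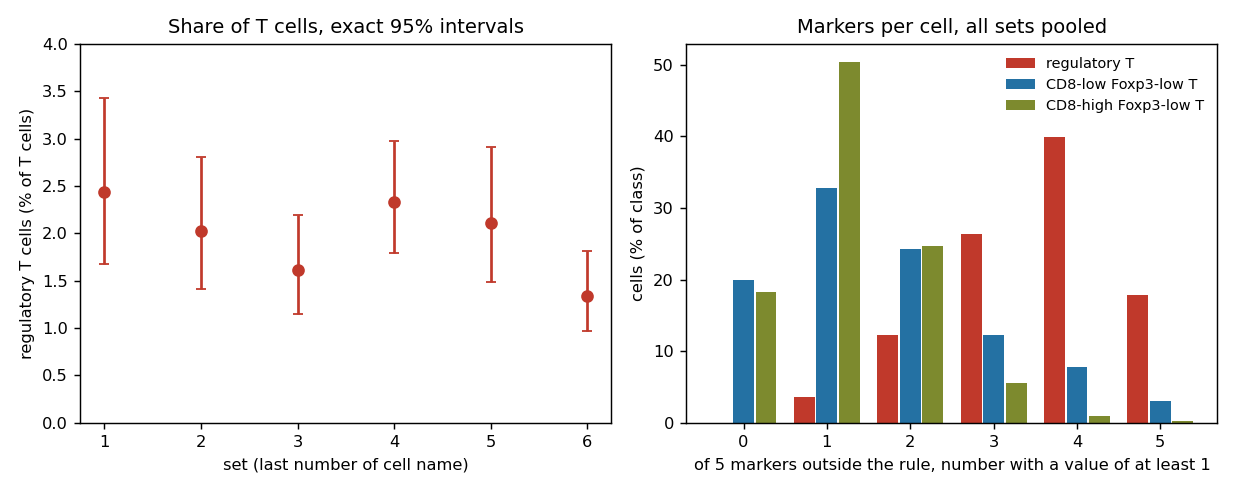
Left, regulatory T cells as a percentage of the T cells of each of the 6 sets, with exact 95% binomial intervals. Right, the percentage of cells of 3 T-cell classes in which 0 to 5 of the markers Il2ra, Ikzf2, Ctla4, Tnfrsf4 and Il10 had a value of at least 1, all sets pooled. Regulatory T cells peak at 4 markers (39.8%), CD8-low Foxp3-low and CD8-high Foxp3-low T cells at 1 (32.8% and 50.4%).

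The 5 markers that the rule does not use were then counted in each cell. At least 3 of the 5 had a value of 1 or more in 207 of 246 members, or 84.1%, and in 74.3% to 92.9% of the members of each set. The same held for 23.1% of CD8-low Foxp3-low T cells (21.1% to 25.3% over the sets) and for 6.75% of CD8-high Foxp3-low T cells. It also held for 71 of the 112 CD8-high T cells with Foxp3 of at least 1 (63.4%), which the CD8 limit keeps out. No member lacked all 5 markers, and 44 members had all of them. Of the 5, Ctla4 separated the classes least, with a value of at least 1 also in 74.4% of CD8-high Foxp3-low T cells. The markers were chosen with earlier results of these data known, so the counts describe the members and are no independent check. The name regulatory T cell was kept as a description.

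The level of each gene was then compared between the members and the other T cells of the same set. A gene was counted as higher or lower where the difference of mean values was at least 0.25 natural log units in the same direction in each of the 6 sets. Of 1992 genes outside the rule, 54 (2.71%) were higher and 36 (1.81%) were lower than in all other T cells. Against the CD8-low Foxp3-low T cells, 39 genes (1.96%) were higher and 10 (0.502%) were lower.  The median difference over all genes was -0.0025 and -0.0012. The 2 comparisons share the members, and the CD8-low cells are part of the other T cells, so they are not separate evidence.

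Of the list of regulatory T-cell genes, 12 outside the rule could be read. Against all other T cells, 8 were higher, none was lower and 4 were neither, with a median difference of 0.74. Against CD8-low Foxp3-low T cells, 7 were higher and 5 neither, with a median of 0.55. Every gene named in this list was picked for regulatory T cells with earlier results of these data known.

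Ikzf2 encodes Helios, a zinc-finger factor that stabilises the regulatory state. Its mean value in the members of sets 1 to 6 was 2.29, 1.93, 2.41, 2.26, 2.13 and 2.25. In the CD8-low Foxp3-low T cells it was 0.94, 0.68, 0.91, 0.75, 0.73 and 0.85. All 6 member means thus lay above all 6 comparison means, and the difference was 1.25 to 1.51. In set 1 the members had 1178 CPM (the gene's summed UMIs per 1000000 UMIs of the class; exact Poisson interval 1025 to 1348, from 213 UMIs in 29 of 32 cells). The ratio of Ikzf2 to CD8-low Foxp3-low T cells was 2.80 (2.34 to 3.35), and hepatoma-gated cells, which should lack the gene, had 2.49 CPM.

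Ctla4 had the highest mean value of the 5 markers. It stood at 3.37, 3.09, 3.03, 3.20, 3.51 and 3.52 in the members of sets 1 to 6, and between 1.55 and 1.91 in the CD8-low Foxp3-low T cells. A value of at least 1 was found in 237 of 246 members, against 64.8% to 76.7% of the CD8-low Foxp3-low T cells by set, so Ctla4 was common in both classes. In set 1 the members had 3197 CPM (2942 to 3469), the other T cells 673 and the CD8-low Foxp3-low T cells 1263, a ratio of 2.53 (2.28 to 2.81) to the last.

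Il2ra, the alpha chain of the interleukin 2 receptor, was less even. Member means were 1.03, 0.86, 0.72, 1.00, 1.00 and 1.00 against 0.27 to 0.39 in the CD8-low Foxp3-low T cells. Only 125 of 246 members had an Il2ra value of at least 1. In set 1, 19 of 32 members had an Il2ra UMI and 1 cell carried 32.8% of them. The level was 337 CPM (258 to 433), which was 2.42 times (1.73 to 3.37) that of CD8-low Foxp3-low T cells and 5.48 times that of all other T cells. Without that cell the Il2ra ratios were 1.78 and 4.03, and with all cells thinned to 1000 UMIs the ratio to all other T cells was 8.67. Il2rb, the receptor chain shared with interleukin 15, differed by a median of 0.05 from other T cells and of 0.36 from CD8-low Foxp3-low T cells, and passed in neither comparison.

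Il10 varied most between the sets of the 5 markers. Its mean in the members was 1.46, 1.32, 0.99, 1.33, 1.78 and 1.95, against 0.30 to 0.53 in the CD8-low Foxp3-low T cells and 0.05 to 0.07 in the CD8-high Foxp3-low T cells. The share of members with an Il10 value of at least 1 was 46.9%, 28.6%, 35.9%, 40.3%, 47.2% and 85.7%, so set 6 stood above the others. In set 1, where UMIs are known, 19 of 32 members had an Il10 UMI, and 1 cell held 24.3% of the 210 UMIs. The level was 1162 CPM (1010 to 1330) in the members, 298 in CD8-low Foxp3-low T cells, 45.0 in all other T cells and 3.41 in hepatoma-gated cells. The ratio of Il10 to all other T cells was 25.8 (21.8 to 30.6) and that to CD8-low Foxp3-low T cells 3.89 (3.20 to 4.74). When membership needed 2 Foxp3 UMIs, so that cells with 1 UMI joined the comparison cells, these ratios were 14.9 and 2.01.

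The further genes of the list that were higher in both comparisons were Klrg1, Izumo1r and Areg. Klrg1, a cadherin-binding inhibitory receptor of differentiated lymphocytes, had member means of 1.00 to 1.42 against 0.18 to 0.28 in CD8-low Foxp3-low T cells. In set 1 it stood at 586 CPM (480 to 709), 8.97 times (6.29 to 13.0) the level in CD8-low Foxp3-low T cells and 25.9 times that in all other T cells. With membership at 2 Foxp3 UMIs the Klrg1 ratio to the CD8-low cells was 4.47. Izumo1r, the folate receptor of regulatory T cells, differed by a median of 0.85 from other T cells and 0.61 from CD8-low Foxp3-low T cells. Areg, an epidermal growth factor receptor ligand linked to tissue repair, differed by 0.69 and 0.49 on the deposited scale. In the summed UMIs of set 1, however, Areg was 243 CPM in the members and 232 in CD8-low Foxp3-low T cells, a ratio of 1.05. Its call against these cells therefore did not appear in the pooled molecules of that set. Per cell it did differ there, with an Areg value of at least 1 in 34.4% of members and 11.3% of CD8-low Foxp3-low T cells.

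Nt5e, which encodes the adenosine-forming enzyme CD73, was higher than in all other T cells (median difference 0.50) and missed the size in the CD8-low comparison (0.33). Lrrc32, the GARP receptor that displays latent TGF-beta, differed by 0.17 and 0.14, and Il1rl1, the interleukin 33 receptor, by 0.20 and 0.16. Neither passed. In set 1 their UMIs were few but concentrated in the members. Lrrc32 had 11 UMIs and 60.9 CPM against 8.52 in CD8-low Foxp3-low T cells, and Il1rl1 had 20 UMIs and 111 CPM against 15.6.

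**Figure D2:**
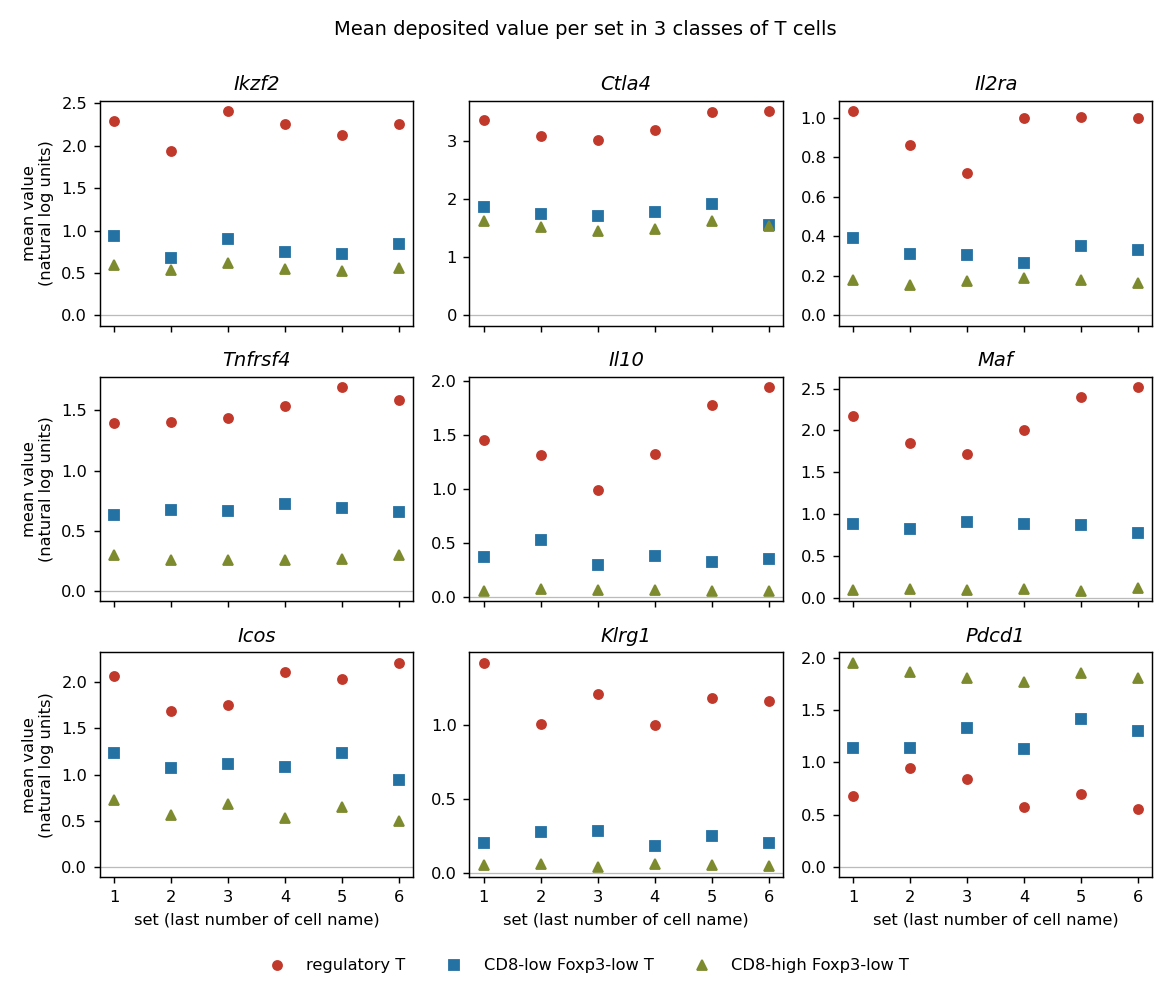
Mean deposited value (natural log units) of 9 genes in each of the 6 sets, for regulatory T cells, CD8-low Foxp3-low T cells and CD8-high Foxp3-low T cells. For 8 of the genes, from Ikzf2 to Klrg1, the regulatory T cells lie above both other classes in every set, while for Pdcd1 they lie below both, at 0.55 to 0.95.

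Costimulatory receptors and ligands of the TNF and CD28 families were counted next. Of 10 genes, 4 were higher than in other T cells, none was lower and 6 were neither, with a median of 0.30. Against CD8-low Foxp3-low T cells 5 were higher and none was lower, with a median of 0.42. Tnfrsf4 (OX40) had member means of 1.39, 1.40, 1.44, 1.53, 1.69 and 1.58 against 0.63 to 0.72 in CD8-low Foxp3-low T cells. Tnfrsf18 (GITR) stood at 1.54 to 2.22 against 0.87 to 1.07, and Icos, a relative of CD28, at 1.69 to 2.21 against 0.95 to 1.23. For these genes no member mean overlapped a comparison mean.

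Tnfrsf9 (4-1BB), which marks recent T-cell receptor stimulation, differed in its pattern. Its member means were 1.85 to 2.21, above CD8-low Foxp3-low T cells at 0.86 to 1.03 and above all other T cells at 1.04 to 1.13. The median difference was larger against the CD8-low cells (1.00) than against all other T cells (0.81), the reverse of Tnfrsf4, at 0.79 and 1.16. In set 1 Tnfrsf9 had 891 CPM in the members, 335 in CD8-low Foxp3-low and 385 in CD8-high Foxp3-low T cells. Cd27, another receptor of the family, was higher only by the CD8-low comparison (0.51, against 0.34 for all other T cells). The difference between the 2 comparisons was not tested.

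The ligands of this list were not high. Cd40lg, the helper ligand for CD40, had no UMI in the members of set 1 and 28.4 CPM in the CD8-low Foxp3-low T cells, which makes it at least 1.71-fold lower by a floor of 3 UMIs. Tnfsf11 (RANKL) had 3 UMIs, 16.6 CPM, against 213, a ratio of 0.078 (0.016 to 0.23). Neither passed over all sets, with median differences of -0.15 and -0.39.

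Maf, a factor known to drive Il10, was the gene with the largest median difference from all other T cells (1.86). Its member means were 2.17, 1.85, 1.72, 2.00, 2.40 and 2.52, against 0.77 to 0.91 in CD8-low Foxp3-low and 0.08 to 0.12 in CD8-high Foxp3-low T cells. In set 1 Maf had 1034 CPM (892 to 1194), 17.5 times (14.7 to 20.7) the level in other T cells and 2.76 times (2.28 to 3.34) that in CD8-low Foxp3-low T cells. Hepatoma-gated cells had 38.1 CPM and macrophage-gated cells 289. Of 24 listed transcription factors 13 could be read, and Maf was the only one of these to pass in either comparison. Batf, a factor of activated and tumour regulatory T cells, differed by 0.12 and 0.03, Gata3 by 0.17 and 0.09, and Klf2, which promotes exit from tissue, by 0.30 and 0.22.

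**Figure D3:**
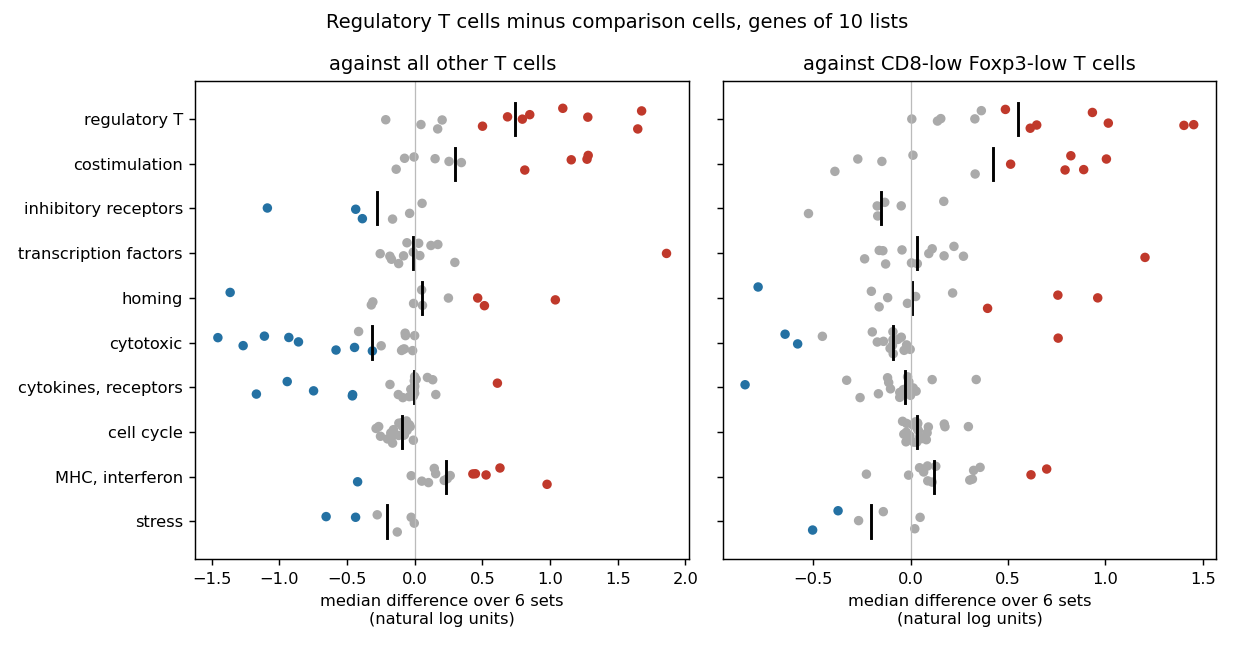
Median over 6 sets of the difference of mean values (natural log units) between regulatory T cells and all other T cells (left) or CD8-low Foxp3-low T cells (right), 1 point per gene in 10 gene lists. Red and blue points were at least 0.25 higher or lower in each set, grey points neither, and the bar is the list median. The highest bar is that of the regulatory T list, at 0.74 and 0.55. The cell cycle list has no coloured point, which is near the low share called over all genes.

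Among receptors for homing and retention, 3 of 10 genes were higher and 1 was lower in both comparisons, with list medians of 0.05 and 0.01. Ccr2, the receptor for the monocyte chemokine CCL2, had member means of 0.99 to 1.57 against 0.23 to 0.43 in CD8-low Foxp3-low T cells. Its level in set 1 was 658 CPM, with 20 of 32 members positive and 31.1% of the UMIs in 1 cell. The ratio to CD8-low Foxp3-low T cells was 4.68 (3.55 to 6.17) with that cell, 3.60 without it and 2.79 after thinning to 1000 UMIs. Macrophage-gated cells had 145 CPM of Ccr2, below the members. Cxcr6, a receptor for retention in tissue, was lower, with member means of 0.03 to 0.50 against 0.81 to 1.21. In set 1 Cxcr6 stood at 144 CPM against 298 in the CD8-low Foxp3-low T cells, a ratio of 0.48 (0.31 to 0.73), and 1 member held 53.8% of the UMIs. Itgb7, the beta 7 integrin chain, which is in no list, was higher by 1.14 and 0.98.

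The receptor blocked by the antibody of this study was low in the members. Pdcd1 (PD-1) had member means of 0.68, 0.95, 0.84, 0.57, 0.70 and 0.55, against 1.14, 1.13, 1.33, 1.13, 1.41 and 1.30 in CD8-low Foxp3-low T cells and 1.77 to 1.95 in CD8-high Foxp3-low T cells. The member mean was the lowest of the 3 classes in every set, and a value of at least 1 was found in 87 of 246 members. Pdcd1 passed against all other T cells (median -1.09) but not against the CD8-low Foxp3-low T cells (-0.52), where set 2 was only 0.18 lower. In set 1 it had 210 CPM (149 to 289) in the members, 436 in CD8-low Foxp3-low and 749 in CD8-high Foxp3-low T cells, and the ratio to the CD8-low cells was 0.48 (0.33 to 0.68). Because the sets are not tied to treatments, Pdcd1 with and without antibody cannot be told apart.

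Of 10 listed inhibitory receptors and their regulator genes, 6 could be read, and Lag3 and Tigit were not among them. The inhibitory receptors Ctla4 and Klrg1 were counted in the regulatory T list instead. They were higher in both comparisons, by 1.68 and 1.45 for Ctla4 and by 1.09 and 0.93 for Klrg1. Of the 6 genes, 3 were lower than in other T cells (median -0.28) and none passed against CD8-low Foxp3-low T cells (median -0.15). Besides Pdcd1 these were Tox, a factor of exhausted CD8 T cells, at -0.44, and Cd160 at -0.39. Havcr2 (TIM-3) differed by -0.16 and 0.17 and stood at 166 CPM in the members and 129 in the CD8-low Foxp3-low T cells of set 1.

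Genes of cytotoxic lymphocytes differed by comparison. Of 17 genes, 8 were lower than in all other T cells, none was higher and 9 were neither, with a list median of -0.31. Against CD8-low Foxp3-low T cells 2 were lower, 1 was higher and 14 neither, with a median of -0.09. The lower pair was Klrd1 (CD94) and Klrc1 (NKG2A), partner chains of 1 receptor. Klrd1 had no UMI in the 32 members of set 1 and 159 CPM in CD8-low Foxp3-low T cells, so it was at least 9.59-fold lower by the floor of 3 UMIs. Klrc1 had 2 UMIs in the members, a ratio of 0.067 (0.0081 to 0.25). Prf1, which encodes perforin, had member means of 0.13 to 0.51 against 1.16 to 1.40 in all other T cells and 0.37 to 0.56 in CD8-low Foxp3-low T cells, so it overlapped the latter.

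Gzmb, the protease granzyme B, was the single cytotoxic gene higher than in CD8-low Foxp3-low T cells, and it lies outside the rule by which genes were named and was chosen after its values were seen. Its member means were 1.64, 1.30, 1.29, 1.26, 1.68 and 1.01 against 0.68, 0.63, 0.71, 0.41, 0.45 and 0.43. From all other T cells it differed by -0.26 to 0.47, with no direction held over the sets. In set 1 the summed level was 2257 CPM, but 1 of 32 members held 76.2% of the 408 UMIs. Without this cell the Gzmb level was 599 CPM, and the ratio to CD8-low Foxp3-low T cells went from 7.64 to 2.03. The ratio to all other T cells turned from 2.11 to 0.56. With every cell thinned to 1000 UMIs, 34.4% of the members (interval 18.6% to 53.2%) and 20.8% of the CD8-low Foxp3-low T cells had a Gzmb UMI, against 0.91% of hepatoma-gated cells.

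**Figure D4:**
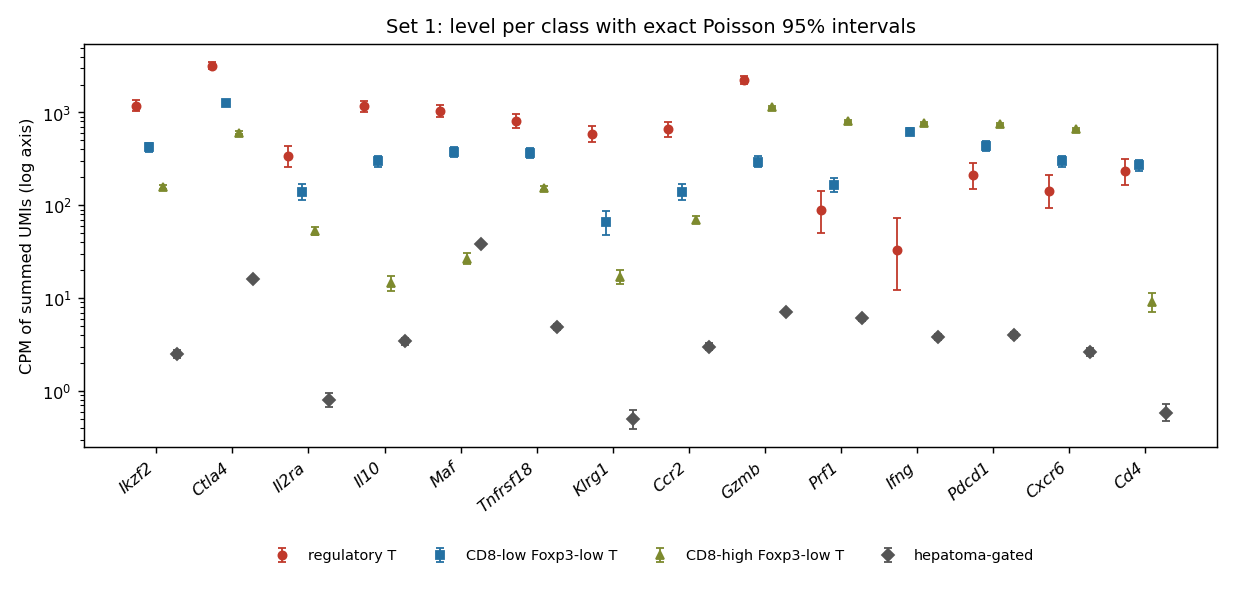
CPM from summed UMIs of 14 genes in 4 classes of set 1 on a log axis, with exact Poisson 95% intervals that cover counting error only. Klrg1 stands 8.97 times and Il10 3.89 times as high in regulatory T cells as in CD8-low Foxp3-low T cells, Ifng stands at 33.2 CPM against 622 and 777 in the other T-cell classes, and the Gzmb point includes 1 cell with 76.2% of its UMIs.

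Among effector cytokines, Ifng, which encodes interferon gamma, had member means of 0.15, 0.25, 0.44, 0.22, 0.38 and 0.14, against 1.04, 1.00, 1.22, 1.19, 1.23 and 0.99 in CD8-low Foxp3-low T cells, with no overlap. In set 1, 4 of 32 members had an Ifng UMI and the level was 33.2 CPM (12.2 to 72.2), a ratio of 0.053 (0.019 to 0.12) to CD8-low Foxp3-low T cells. The ratio was 0.22 when every CD8-low T cell with a Foxp3 UMI was a member, 0.091 with 2 Foxp3 UMIs and 0.028 without the cell with most Ifng UMIs. After thinning to 1000 UMIs, 0 of 32 members (upper limit 10.9%) and 28.3% of the CD8-low Foxp3-low T cells had an Ifng UMI. Of 22 cytokine and receptor genes, 5 were lower and 1 higher than in all other T cells (median -0.01), and only Ifng passed against CD8-low Foxp3-low T cells (median -0.03). The chemokines Ccl3, Ccl4 and Ccl5 were lower than in all other T cells, with medians of -0.46, -0.75 and -0.94. Against CD8-low Foxp3-low T cells their medians were -0.02, -0.04 and 0.01. Il7r, the interleukin 7 receptor, was higher than in other T cells (0.61) and missed the size against the CD8-low cells (0.34).

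Outside the lists, the genes most above CD8-low Foxp3-low T cells included Itgb7, Fgl2, Srgn, P2ry10, Gimap7 and Cd2. Fgl2, a secreted fibrinogen-like protein of regulatory T cells, differed by a median of 0.98 from all other T cells and 0.91 from the CD8-low cells. Srgn, the granule proteoglycan serglycin, differed by 1.06 and 0.85, and the adhesion receptor Cd2 by 0.94 and 0.80. The gene lowest in both comparisons was Ms4a4b, a membrane protein of T cells. Its member means ran from -0.21 to 0.48 against 1.23 to 1.66 in CD8-low Foxp3-low T cells, and in set 1 the ratio was 0.19 (0.11 to 0.31). Nr4a2, an orphan nuclear receptor induced by stimulation, was lower by a median of -1.32 and -0.60, and the MAP kinase phosphatase Dusp2 by -0.89 and -0.59.

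Of 14 genes of antigen presentation and interferon response, 5 were higher and 1 lower than in all other T cells (median 0.23), and 2 were higher than in CD8-low Foxp3-low T cells (median 0.12). One of them was Ly6a (Sca-1), a surface protein induced by interferon, at 0.98 and 0.70. Of 6 stress and immediate-early genes, Hspa1b and Fosb were lower in both comparisons, at -0.66 and -0.50 for Hspa1b and -0.44 and -0.37 for Fosb. These genes respond to tissue dissociation, and the part of that step in the difference was not tested.

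None of 23 cell-cycle genes passed in either comparison, with list medians of -0.09 and 0.03. Over all genes outside the rule, 2.71% were higher and 1.81% lower than in other T cells. Against CD8-low Foxp3-low T cells these shares were 1.96% and 0.502%. A count of none among 23 is near such shares and is not read as a result about the cell cycle. The list medians moved with the Foxp3 limit. They were -0.02 and 0.15 with a limit of 0.5, and -0.22 and -0.07 with a limit of 1.5, so the sign against CD8-low Foxp3-low T cells turned at the stricter limit. Mki67, a marker of dividing cells, had a value of at least 1 in 47 of 246 members, from 12.9% to 35.9% by set. The CD8-low Foxp3-low T cells stood at 15.8% to 26.2%, so the ranges overlapped. In set 1 Mki67 was 266 CPM in the members, 189 in CD8-low Foxp3-low and 303 in CD8-high Foxp3-low T cells.

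**Figure D5:**
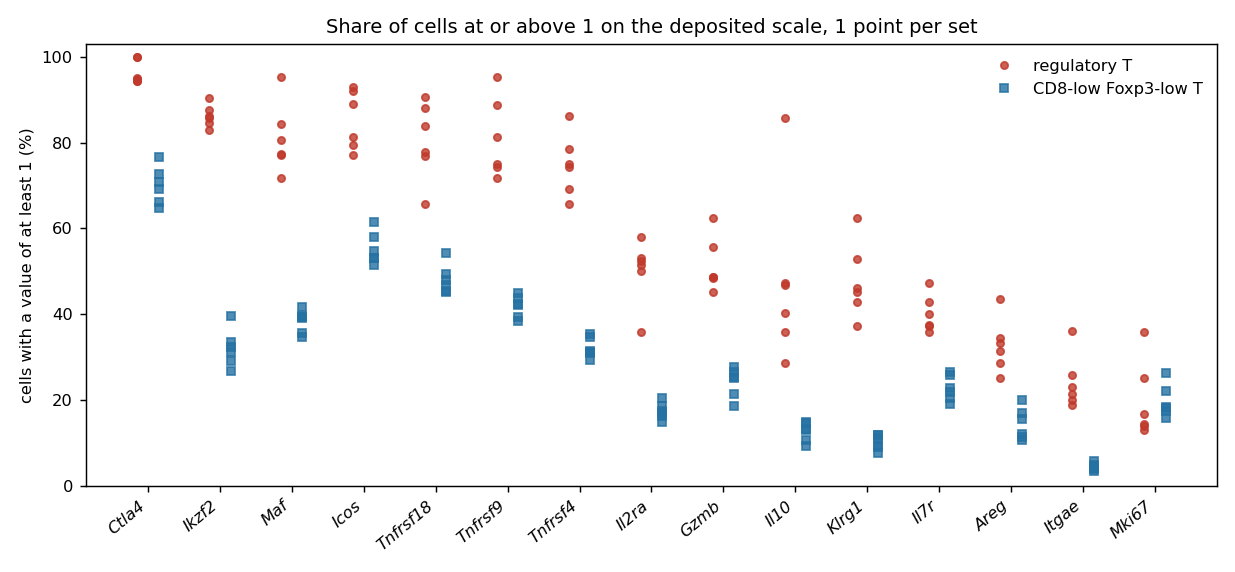
Percentage of cells with a deposited value of at least 1 for 15 genes, 1 point per set, in regulatory T cells and CD8-low Foxp3-low T cells. Ctla4 is at 94.3% or more in every set of regulatory T cells, Il10 runs from 28.6% to 85.7% between sets, and the points of the classes overlap for Mki67.

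The members were not uniform. Ctla4, Ikzf2, Icos, Tnfrsf9, Tnfrsf18 and Maf had a value of at least 1 in 237, 213, 212, 202, 199 and 199 of the 246 cells. Il2ra, Gzmb, Il10 and Klrg1 did so in 125, 125, 117 and 114, so close to an even split. Il7r, Areg and Itgae marked 98, 83 and 60 members. The deposited Il10 value ran from -1.02 through a median of 0.97 to 5.87 in single members, and Gzmb from -0.64 through 1.08 to 5.12.

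Some of these genes were found in the same cells more often than others. Klrg1 was at 1 or more in 71 of 125 Gzmb-high members (56.8%) and in 43 of 121 Gzmb-low members (35.5%), and the share was larger among Gzmb-high cells in 6 of 6 sets. Il10 was at 1 or more in 107 of 199 Maf-high and 10 of 47 Maf-low members, larger among Maf-high cells in 5 of 6 sets. Il10 marked 15 of 47 Mki67-high members (31.9%) and 102 of 199 Mki67-low members (51.3%). For Il10 and Klrg1 the shares were close, with Klrg1 at 1 or more in 56 of 117 Il10-high (47.9%) and 58 of 129 Il10-low members, and larger among Il10-high cells in 3 of 6 sets. These 4 pairs are from 13 that were counted, and the cells of a set share a library. A deeper cell detects more of every gene, and the part of depth in these pairings was not tested.

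Cells on both sides of the limits of the rule were then compared. Among CD8-low T cells, 61 had a Foxp3 value from 0.5 to 1, just outside. Their mean values of Ikzf2, Ctla4, Il2ra and Il10 were 2.26, 2.81, 0.83 and 0.99. The 93 members with Foxp3 from 1 to 1.5 had 2.23, 3.23, 0.95 and 1.36, and the 1620 CD8-low T cells below 0.5 had 0.74, 1.71, 0.30 and 0.35. The cells just outside thus resembled the members more than the remaining CD8-low T cells. On the CD8 side, 14 Foxp3-high T cells had a CD8 mean from 0.3 to 0.6, and 98 had 0.6 or more. The latter had a mean Cd8a value of 1.69 and means of 1.66 for Ikzf2, 2.56 for Ctla4 and 1.00 for Prf1, between the members and the CD8-high Foxp3-low T cells, at 0.56, 1.53 and 1.38.

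In set 1, 14 members rested on 1 Foxp3 UMI, 9 on 2, and 9 on 3 to 6. One UMI reaches a value of 1 only in cells of up to 5819 UMIs, a total exceeded by 41 of 191 CD8-low T cells and by 11 members. Accordingly 6 CD8-low T cells with a Foxp3 UMI were no members. The median was 3577 UMIs per cell in the members (1584 to 18760), 2381 in CD8-low Foxp3-low and 5304 in CD8-high Foxp3-low T cells. Hepatoma-gated cells had a median of 16453 UMIs, and 2.13% of them had a Foxp3 UMI. Of all 191 CD8-low T cells, members included, 38 had a Foxp3 UMI. The CD8-low Foxp3-low T cells stood at 3.77%, but the rule keeps cells at the Foxp3 limit out of that class. After thinning to 1000 UMIs, a Foxp3 UMI was left in 43.8% of members, which were chosen by Foxp3, and in 0.13% of hepatoma-gated cells. The part of depth in the differences of log values and in the choice of members was not tested. Thinning was done in set 1 alone, with the members already chosen. It left Il10 UMIs in 46.9% of members against 8.81% of CD8-low Foxp3-low T cells, and Ctla4 UMIs in 96.9% against 49.7%. Before thinning the Il10 shares were 59.4% and 13.8% and the Ctla4 shares 100% and 69.8%.

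Markers of other cell types were read in the same cells. The 8 markers of natural killer cells summed to 11.1 CPM in the members of set 1, with 6 at 0. Other T cells had 413 CPM of them and CD8-low Foxp3-low T cells 242. The 10 macrophage markers summed to 1156 CPM against 751, with C1qc, Mrc1, Cd14 and Fcgr1 at 0 and Ccr2 giving 658 of the sum. The 7 hepatoma markers summed to 929 CPM in the members, 1305 in other T cells, 1850 in CD8-low Foxp3-low T cells and 9289 in hepatoma-gated cells. Markers of neutrophils, dendritic cells, fibroblasts and mast cells gave at most 16.6 CPM each. Scrublet, a doublet caller, marked 0 of 32 members and 26 of 1280 other T cells. Cd4 itself had 232 CPM in the members and 269 in the CD8-low Foxp3-low T cells, while Cd8a, used by the rule, had no UMI. These UMI levels and doublet calls cover set 1 alone, with 32 of the 246 members. In set 6, Cd14 was at 1 or more in 9.52% and C1qc in 7.14% of members, against 3.62% and 1.64% of CD8-low Foxp3-low T cells. Mrc1 and Fcgr1 reached 1 in no member of any set. Of the 10 macrophage markers, only Ccr2 was higher than in other T cells in every set. Foxp3 was at 1 or more in 492 cells of the table, of which 134 did not meet the T-cell or macrophage limits.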

How the data were processed

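The deposited natural log values of 2000 genes in 53528 cells were used as given. Per the submitters' processing notes, reads were aligned with STAR 2.7.2b, and GRCh38 and mm10 are named. Mouse gene names hold 1984 of the symbols, and no coordinates are given. All 53528 columns belong to no known sample. In set 1 the UMI total of a cell was the commonest whole number (tolerance 1e-06) given by its low values, and every nonzero value (100%) then gave a whole count of UMIs to within 0.01. The table's genes hold 15.0% of these UMIs. Totals were found for 12.5% to 29.5% of cells in the other sets.

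Members and lists were chosen with earlier results of these data known. Named genes were the markers, up to 4 genes per list with the largest median difference, and the 15 highest and 10 lowest called genes of each comparison. Further listed genes are given to describe their list, and some genes counted in the lists are not reported here by name. Hepatoma-gated cells had a mean of Afp, Alb and Ttr of at least 1, and macrophage-gated cells a mean of C1qa and C1qb of at least 0.8. CPM divides by all UMIs of a class. Intervals are at 95%, exact Poisson or conditional binomial, and cover counting error only. Doublets were called with Scrublet (scanpy 1.11.5) in set 1 and kept. The scripts were tested on simulated data.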

Additional observations from a re-analysis of the deposited data

How the results depend on the processing

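No paired analysis was possible because no label ties cells to the labelled entries or their groups, so genotypes and treatments could not be paired. The differences between T-cell classes are themselves taken within each set. The share of 1.90% of T cells became 2.37% with a Foxp3 limit of 0.5, 1.18% with 1.5, 1.62% with a T-cell mean of at least 1.2, 2.76% with no CD8 limit and 12.8% of CD8-low T cells, and the set 1 share of 2.44% became 1.45% with 2 Foxp3 UMIs. At a size of 0.5, the 54 higher and 36 lower genes against other T cells became 24 and 14, and the 39 and 10 against CD8-low Foxp3-low T cells became 16 and 3. At a size of 0.15 the last count was 18. By the ratio of summed UMIs in set 1 alone, over 463 genes, 162 (35.0%) were higher and 147 (31.7%) lower than in other T cells. Against CD8-low Foxp3-low T cells, over 477 genes, 173 (36.3%) were higher and 153 (32.1%) lower. This rule needs 1 set in place of 6. With each set left out in turn, the counts were 55 to 59, 36 to 41, 39 to 45 and 10 to 13. Of 192 recomputed UMI ratios, 147 stayed within the interval, 44 moved and 1 reversed, the Gzmb ratio to other T cells, at 0.56 without 1 member. That alternative was chosen after seeing the data. Of 240 recomputed list medians 231 stayed within the range over sets and 9 moved, among them the 4 cell-cycle medians at the other Foxp3 limits. Of 16 thinned shares 7 moved at 2000 UMIs. With 32 members in set 1, a gene without a UMI there can stand at up to 16.6 CPM by the floor of 3 UMIs.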

Other observations

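Ighm, the heavy chain of immunoglobulin M, was higher in the members than in all other T cells in each set, by 0.37 to 0.69 natural log units, and by 0.23 to 0.62 than in CD8-low Foxp3-low T cells. In set 1 it had 45 UMIs in 15 of 32 members, or 249 CPM, against 54.0 CPM in CD8-low Foxp3-low, 235 in CD8-high Foxp3-low T cells and 5.66 in hepatoma-gated cells. An Ighm value of at least 1 was found there in 40.6% of members, 10.7% of CD8-low Foxp3-low and 5.97% of CD8-high Foxp3-low T cells. The summed level of the CD8-high cells thus came from a smaller share of cells. Igkc had 4 UMIs in the members, and Cd79b, Ms4a1, Jchain and Mzb1 had none.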
